A study of Homo sapiens with 12 samples.

Results

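The 60 genes described here encode the machinery of G2 phase and mitosis in human cells. They comprise the mitotic cyclins with CDK1 and its activating phosphatases, the Polo, Aurora and NEK2 kinases, the chromosomal passenger complex, the spindle assembly checkpoint, activators and substrates of the anaphase-promoting complex, spindle kinesins, centromere and kinetochore proteins, and proteins of spindle assembly, cytokinesis and chromosome condensation. The members are the rows of a raw count table whose gene symbol was on a list of names. That list was made with earlier results of these data known. All 60 symbols were found, each in a single row, among 60612 named rows. Every member was tested in each comparison, and the lowest raw count of any member in any library was 27.

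RNA-seq was performed on ZR-75-1, an oestrogen receptor-positive, luminal human breast cancer cell line, in 4 groups of 3 replicates. Cells had been edited by CRISPR with a non-targeting guide (sgControl) or a guide against *RB1* (RB1 knockout). Single-cell sorting into clones is described in the study's methods for the knockout lines, and not for sgControl cells. Cells of each genotype received DMSO or 500 nM abemaciclib, an inhibitor of the cyclin D-dependent kinases CDK4 and CDK6, for 5 days. The number of clones behind each genotype is not given in the sources used here, so p-values measure the spread between cultures, and features of a clone cannot be told apart from the effect of the guide.

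In a dividing cell, CDK4 and CDK6 phosphorylate the retinoblastoma protein Rb, the product of *RB1*, which releases E2F transcription factors and lets the cell enter S phase. Genes for mitosis follow later in the cycle. Their promoters are typically bound by the MuvB core complex at a cell cycle genes homology region (CHR) and by NF-Y at CCAAT boxes. MuvB represses them together with relatives of Rb in arrested cells and activates them together with B-MYB and FOXM1 in G2. Transcripts of these genes are therefore widely used as a measure of the proliferating fraction of a tumour.

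Libraries held 39907318 to 81636393 counts. *RB1* counts were 2090 to 7543 in the sgControl libraries and 29 to 63 in the knockout libraries, which matched the genotype labels. Transcripts of 9 luminal breast markers were present in every group. Those of 15 markers of other cell types together reached 2716 to 3527 normalized counts per library, against 849018 to 1150960 for the luminal list. Of the 15, 5 had no count in the sgControl DMSO libraries and 8 in the sgControl abemaciclib libraries. In the knockout, 7 had none under DMSO and 3 none under abemaciclib, and the others were detected. Mitochondrial genes took 2.82% to 4.13% of counts under DMSO and 5.44% to 8.53% under abemaciclib, in both genotypes. This share moved with treatment, and its part in the results was not tested. Pseudogenes and close copies of members had rows of their own with at most 11 counts in a library, and the highest, *KIF4B*, held 0.103% of the counts of *KIF4A*. The sgControl DMSO replicate 1 library stood apart in a way related to transcript length. Without it, 59 members were still lower in the sgControl response (median −2.46) and 59 positive in the interaction (median 2.32), and the comparisons in which calls moved are given below with and without it.

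The members fell together in sgControl cells treated with abemaciclib. Of the 60 genes, 59 were lower than in DMSO and none was higher (DESeq2, Benjamini-Hochberg adjusted p under 0.05), with all 60 estimates below 0 in DESeq2 and in edgeR. Among all genes, 24.8% of the 22723 tested were lower and 25.0% higher. All 59 fell at least 2-fold, a size of decrease that 9.56% of all genes reached. The median log2 fold change of the members was −2.45, against 0.01 over all genes tested, so that the median member kept 18.4% of its DMSO level. For 10 members less than 5% remained, for 17 less than 10%, and for 6 more than 40%. The abemaciclib replicates lay below the DMSO replicates without overlap for all 60 members, as they did for 27.0% of all genes. Summed over the members, the share of library counts was 0.581% to 0.679% in DMSO and 0.0978% to 0.102% in abemaciclib. In these bulk samples fewer cells in G2 and mitosis and less RNA per cell cannot be told apart.

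**Figure D1:**
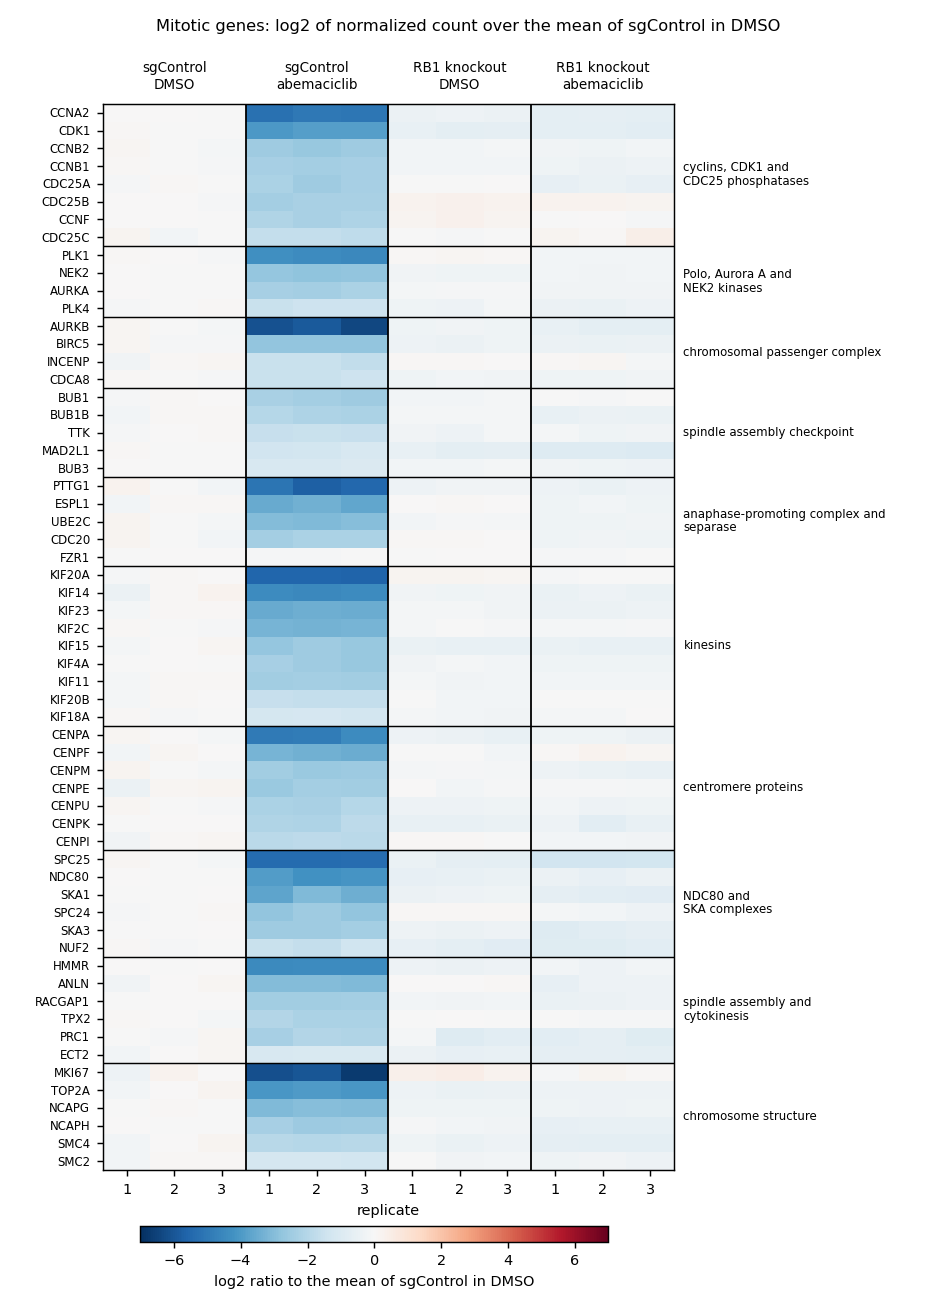
Heatmap of the 60 members (rows, grouped by role) in the 12 libraries (columns, by group and replicate). Colour is log2 of the normalized count relative to the mean of the 3 sgControl DMSO libraries, on a linear scale from −7 to 7. The 3 abemaciclib-treated sgControl columns are low for every member except *FZR1*, whereas the 6 knockout columns differ less from sgControl cells in DMSO. Member means in the drug-treated knockout were 39.7% (*SPC25*) to 116% (*CDC25B*) of that level, with a median of 81.2%.

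Among the cyclins, CDK1 and the CDC25 phosphatases, all 8 members fell, with a median log2 fold change of −2.33. *CDK1* encodes the kinase that drives entry into mitosis. Its partner cyclin A2, from *CCNA2*, had the largest decrease of the 8. *CCNA2* had 6467, 6563 and 6308 normalized counts in the DMSO replicates and 175, 201 and 193 in the abemaciclib replicates, a change of −5.08 ± 0.07 on the log2 scale (± SE, here and below). Its level was 2.94% of that in DMSO. *CDK1* had 5506, 5149.8 and 5235 normalized counts in DMSO and 324, 364 and 371 in abemaciclib (−3.90 ± 0.07). Cyclin B1, the mitotic partner of CDK1, had a smaller change. *CCNB1* went from 11755, 10910.4 and 10461 to 2208, 2109.5 and 2219.9 normalized counts (−2.34 ± 0.06, adjusted p too small for the software to represent). The phosphatase genes *CDC25A* (−2.33 ± 0.08), *CDC25B* (−2.30 ± 0.05) and *CDC25C* (−1.70 ± 0.12), whose products remove the inhibitory phosphates from CDK1, kept 20.0%, 20.2% and 30.7% of their DMSO levels.

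The 4 genes for Polo-like kinases, Aurora A and NEK2 all fell, with a median of −2.53. PLK1 acts in centrosome maturation, mitotic entry and cytokinesis. *PLK1* had 15664, 14839 and 13685 normalized counts in DMSO and 749, 699.6 and 642 in abemaciclib (−4.40 ± 0.07). *AURKA*, for the kinase of spindle poles, went from 4969 ± 142 (mean ± SD, n = 3) to 1009.5 ± 62.3 normalized counts (−2.30 ± 0.06). *NEK2*, which encodes a kinase that separates centrosomes, changed by −2.77 ± 0.05. The smallest change of the group was that of *PLK4*, the regulator of centriole duplication (−1.49 ± 0.08).

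Members of one complex did not fall by like amounts. The chromosomal passenger complex corrects faulty attachments of chromosomes to the spindle, and its 4 genes spanned −6.10 to −1.52. Its kinase Aurora B is encoded by *AURKB* (chromosome 17, positions 8204733 to 8210600, minus strand, GRCh38), which had 2815, 2492 and 2312 normalized counts in DMSO and 36.6, 43.4 and 30.8 in abemaciclib. The change was −6.10 ± 0.16, which left 1.46% of the DMSO level. *BIRC5*, for the subunit survivin, fell by less (−2.78 ± 0.06). The scaffold *INCENP* (−1.61 ± 0.10) and *CDCA8* for borealin (−1.52 ± 0.06) kept 32.7% and 34.9% of their levels. Differences between members of a complex were not tested.

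The spindle assembly checkpoint, which holds back anaphase until every kinetochore is attached, had the smallest median decrease of the 10 roles, at −1.61. All 5 of its genes fell. *BUB1B*, for the checkpoint protein BubR1, changed from 5925, 7160.2 and 7214 to 1686, 1512 and 1470.3 normalized counts (−2.12 ± 0.08). *MAD2L1*, for Mad2, changed from 5179, 4662 and 4669 to 1939, 1985 and 2213 (−1.24 ± 0.07). *BUB3*, whose product also acts outside the checkpoint, changed from 8977, 8591 and 8677 to 4030.5, 4044 and 4258 (−1.09 ± 0.04, adjusted p = 2.81e-136) and was among the 3 smallest changes of all 60 members.

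Within the group of anaphase-promoting complex (APC/C) activators, its E2 enzyme, securin and separase, 4 of 5 genes fell, with a median of −3.03, and the gene that did not pass was an activator. *CDC20* encodes the activator used in early mitosis. It had 8425, 7231 and 6579 normalized counts in DMSO and 1415, 1573 and 1577 in abemaciclib (−2.28 ± 0.08). *FZR1* (chromosome 19, positions 3506311 to 3538334, plus strand) encodes Cdh1, the activator of late mitosis and G1, and was the only member of the 60 that did not pass the test. *FZR1* had 5020.3, 5195 and 5118 normalized counts in DMSO and 4780.5, 4866 and 4929 in abemaciclib, a change of −0.07 ± 0.04 (95% interval −0.15 to 0.01, adjusted p = 0.130). Its replicates did not overlap between treatments, and it passed in 1 of 18 alternative fits, that with total-count size factors. *PTTG1*, for securin, the inhibitor of separase, kept 2.31% of its level (−5.45 ± 0.13), while *UBE2C*, for the E2 enzyme of the APC/C (−3.03 ± 0.08), and *ESPL1*, for separase itself (−3.49 ± 0.09), kept 12.3% and 8.89%.

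All 9 kinesin genes fell, with a median of −2.63. The kinesin of the central spindle encoded by *KIF20A* (chromosome 5, positions 138178719 to 138187723, plus strand) had 4625, 5093 and 4917 normalized counts in DMSO and 104, 103 and 101 in abemaciclib (−5.57 ± 0.10), the third largest change of the members. *KIF20A* overlaps *BRD8* and *CDC23* on the opposite strand, and whether the authors counted by strand is not stated. *KIF11*, for the motor that pushes spindle poles apart, changed from 5349.9, 6387 and 6231 to 1119, 1164 and 1107 (−2.41 ± 0.07). *KIF2C*, for the microtubule depolymerase MCAK, changed by −3.29 ± 0.06, and *KIF18A*, which dampens chromosome movements, by −1.23 ± 0.07.

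The centromere genes (7 of 7 lower, median −2.46) and those of the NDC80 and SKA complexes, which couple kinetochores to microtubules (6 of 6 lower, median −3.02), fell as well. *CENPA*, for the histone variant that marks centromeres, went from 983, 905 and 814 to 29.1, 30.1 and 42.3 normalized counts (−4.72 ± 0.17). *CENPF*, for a large protein of the outer kinetochore, went from 23623, 30359.5 and 27876 to 2873, 2651 and 2453 (−3.36 ± 0.09), and replicate 1 was the lowest of its DMSO values. The 4 subunits of the NDC80 complex form a single rod, and their transcripts kept from 2.44% (*SPC25*, −5.36 ± 0.18) and 5.93% (*NDC80*, −4.08 ± 0.10) to 15.7% (*SPC24*) and 34.3% (*NUF2*, −1.54 ± 0.08) of the DMSO level. *SPC25* overlaps *NOSTRIN* and *G6PC2* on the opposite strand.

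Genes of spindle assembly and cytokinesis (6 of 6 lower, median −2.29) and of chromosome structure (6 of 6 lower, median −2.73) completed the pattern. *TPX2*, for the activator of Aurora A on the spindle, changed by −2.17 ± 0.07 and *ANLN*, for the cytokinetic scaffold anillin, by −3.05 ± 0.09. *ECT2*, for the exchange factor that positions the cleavage furrow, had 6237, 7199.9 and 7626 normalized counts in DMSO and 3236, 3364 and 3409 in abemaciclib (−1.07 ± 0.07), the second smallest change of the members. *PRC1*, for the bundler of the central spindle, had the fewest counts, 153, 145 and 169.5 in DMSO against 31.3, 38.1 and 36.1 in abemaciclib (−2.15 ± 0.23), and shares part of its span with another gene model on the same strand. At the other end, *MKI67* (chromosome 10, positions 128096659 to 128126423, minus strand), for the proliferation marker Ki-67, which coats mitotic chromosomes, had the largest fall of all 60 members and kept 1.32% of its DMSO level. *TOP2A*, for the topoisomerase that untangles sister chromatids, changed by −4.03 ± 0.08, and the condensin genes *NCAPG* and *SMC4* by −3.03 ± 0.06 and −1.96 ± 0.08.

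**Figure D2:**
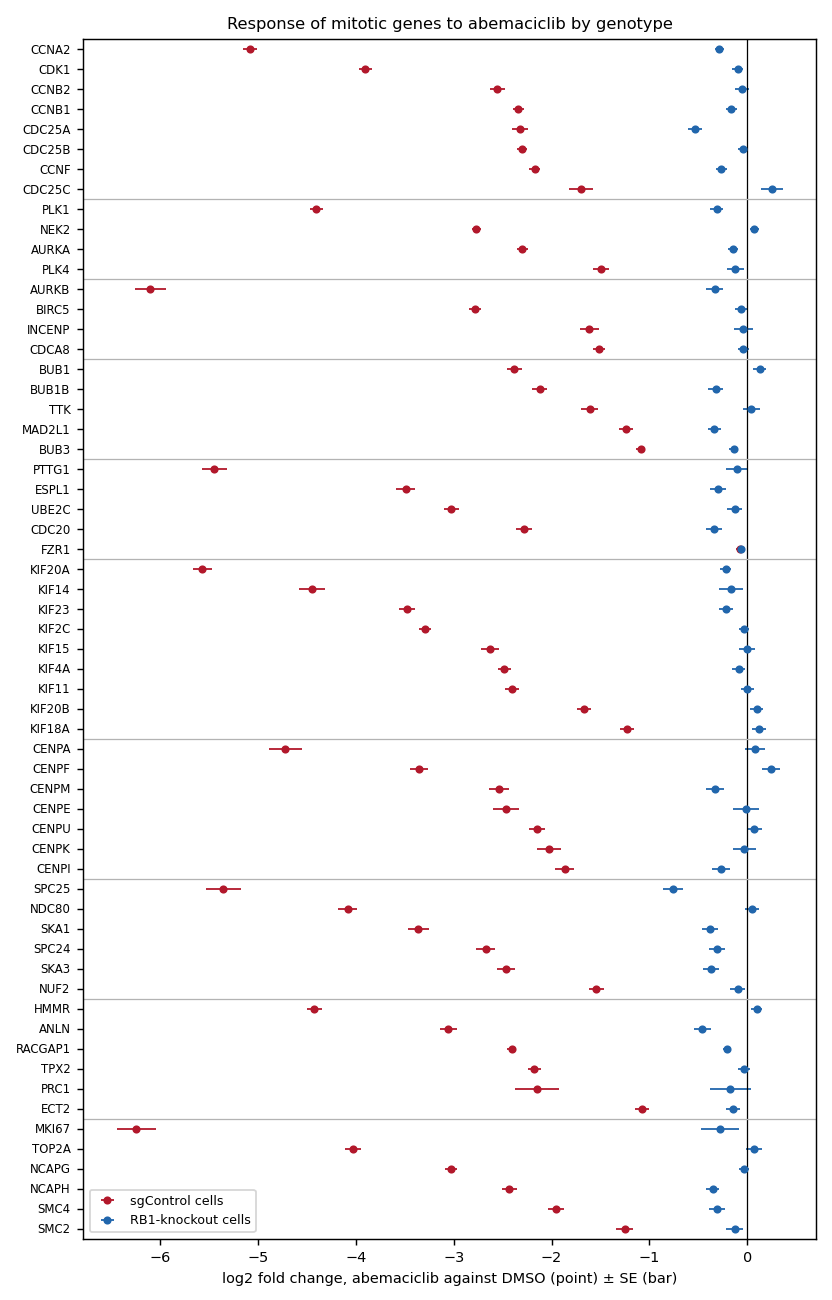
Log2 fold change of each member under abemaciclib, separately for sgControl and RB1 knockout cells, with members grouped by role and horizontal bars for ± SE. The sgControl points run from −6.25 to −0.07 and the knockout points from −0.76 to 0.25.

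Promoter motifs were counted in the members and set beside all promoters, which were not restricted to expressed genes. The members were listed with earlier results of these data known, so the motif counts may not be independent of that choice. RefSeq promoters (GRCh38.p14, 250 bases before to 50 bases after the start) were matched for 52 of the 60 genes, and were not matched for *AURKA*, *BIRC5*, *BUB3*, *TTK*, *UBE2C*, *CENPM*, *TPX2* and *RACGAP1*. Both strands were searched for the CHR letters TTTGAA or TTCGAA, for the CCAAT box by those 5 letters, and for E2F sites by the letters TTTCCCGC or TTTCGCGC or TTTGCCGC or TTTGGCGC. Matches may overlap. A CHR was found in 36 of the 52 promoters (69.2%), against 16.6% of all 27305 promoters in the table. CCAAT was found in 35 (67.3%, against 35.7%), at 2 or more places in 21 (40.4%, against 11.3%). Both motifs occurred in 24 (46.2%, against 6.58%). The E2F letters were found in 5 (9.62%, against 3.33%), and 5 promoters held none of the 3 motifs (9.62%, against 52.5%). Within the last 60 bases before the start, 17 members had a CHR (32.7%, against 2.88%) and 23 a CCAAT (44.2%, against 9.88%).

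The following 120 bases before the RefSeq start are shown 5′ to 3′ on the strand of the gene for 5 members that fell and for *FZR1*, which did not pass the test. Distances are counted from the start to the first base of a match. Capitals mark the CHR and CCAAT letters, on either strand (TTCAAA and ATTGG are the reverse complements of TTTGAA and CCAAT). The regions are *MKI67* at chr10:128126424-128126543, minus strand, *PLK1* at chr16:23678769-23678888, plus strand, *CCNB2* at chr15:59105026-59105145, plus strand, *KIF11* at chr10:92593010-92593129, plus strand, *CCNB1* at chr5:69167030-69167149, plus strand and *FZR1* at chr19:3506191-3506310, plus strand.
MKI67: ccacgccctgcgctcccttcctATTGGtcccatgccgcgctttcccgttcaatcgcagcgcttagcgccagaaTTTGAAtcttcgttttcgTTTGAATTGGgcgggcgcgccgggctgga
PLK1: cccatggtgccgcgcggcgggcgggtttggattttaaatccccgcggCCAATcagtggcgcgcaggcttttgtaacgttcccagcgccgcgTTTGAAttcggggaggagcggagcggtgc
CCNB2: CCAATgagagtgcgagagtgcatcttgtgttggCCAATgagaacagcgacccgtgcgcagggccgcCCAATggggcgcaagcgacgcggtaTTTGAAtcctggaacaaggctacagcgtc
KIF11: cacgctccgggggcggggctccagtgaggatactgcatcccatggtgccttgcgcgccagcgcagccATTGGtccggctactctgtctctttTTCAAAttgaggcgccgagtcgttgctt
CCNB1: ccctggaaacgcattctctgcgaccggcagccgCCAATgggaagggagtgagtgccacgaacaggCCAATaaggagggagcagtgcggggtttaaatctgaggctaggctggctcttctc
FZR1: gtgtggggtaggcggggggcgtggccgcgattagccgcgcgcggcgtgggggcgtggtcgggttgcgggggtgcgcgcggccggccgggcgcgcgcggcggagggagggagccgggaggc

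In *PLK1*, *CCNB2* and *KIF11* a CHR lies 29, 29 and 28 bases before the start, with the nearest CCAAT 73, 54 and 53 bases before it, so that CCAAT precedes CHR in each. *CCNB2* holds 3 CCAAT boxes in this stretch at spacings of 33 bases. *MKI67* has a CHR at 47 and at 29 bases, and its last CCAAT match shares a base with the CHR beside it. The window of *CCNB1* holds 2 CCAAT boxes and neither TTTGAA nor TTCGAA, and a CHR with other letters would have been missed. That of *FZR1* holds neither motif, and its only CHR match lies 226 bases before the start. A match of letters is a description and not a measured binding site.

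**Figure D3:**
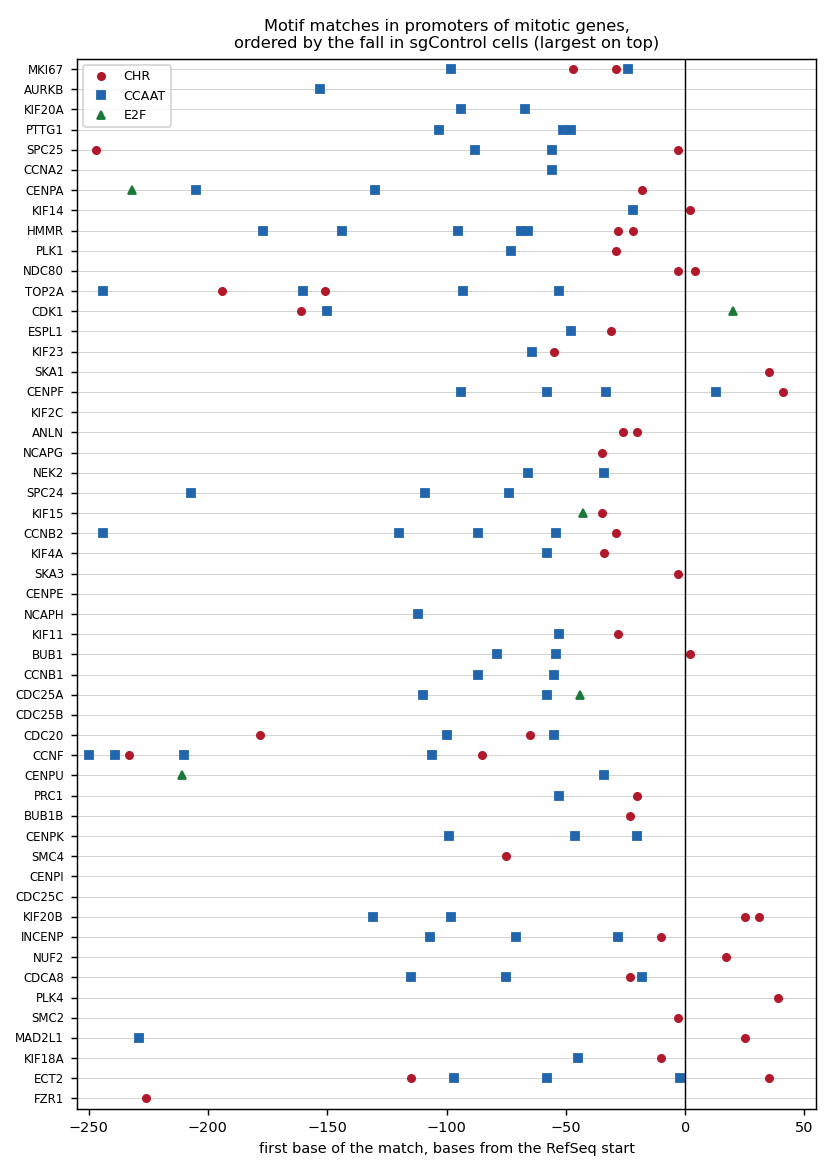
Positions of CHR, CCAAT and E2F matches relative to the RefSeq start (x axis, bases) in the promoters of the 52 matched members, with one row for each promoter. Of the 36 members with a CHR, 17 hold one in the last 60 bases before the start, and 23 members hold a CCAAT there.

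The size of the fall differed little with these letters. The 36 members with a CHR stood at a median of −2.47 (log2, response of sgControl cells) and the 16 without it at −2.45. The medians were −2.55 for the 35 with CCAAT and −2.30 for the 17 without. For the 5 members with the E2F letters and the 47 without them they were −2.63 and −2.46. No test was made of these differences.

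In RB1 knockout cells the same drug at the same dose left the members close to their DMSO levels. Of the 60 genes, 24 were lower and 1 was higher, against 15.1% lower and 14.9% higher among the 18546 genes tested. No member changed 2-fold, where 0.798% of all genes fell and 3.00% rose by that much. The median log2 fold change was −0.12, and members kept from 59.1% to 119% of their DMSO level, with a median of 91.8%. Replicates of the 2 treatments did not overlap for 32 members that were lower and 4 that were higher with abemaciclib, where 24.7% of all genes were separated in each direction. The 35 members not called had estimates of −0.28 to 0.25, and their 95% intervals lay between −0.66 and 0.48.

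The called decreases came from all 10 roles, among them 4 of the 6 genes of the NDC80 and SKA complexes. *SPC25* had the largest change of any member. It had 891, 793 and 749 normalized counts in DMSO and 480.2, 472 and 487 in abemaciclib (−0.76 ± 0.10, adjusted p = 1.19e-11), and the groups did not overlap. The next largest were *CDC25A*, with 1664, 1652 and 1677 against 1118, 1217 and 1108 (−0.54 ± 0.07, adjusted p = 7.1e-12), and *ANLN*, with 9984, 9939 and 10266 against 6720.1, 7583 and 7636 (−0.46 ± 0.09, adjusted p = 1.13e-06). Those 3 genes kept 59.1%, 69.0% and 72.7% of their levels.

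Other members that were lower included genes of mitotic entry, the checkpoint and exit. *CCNA2* changed by −0.29 ± 0.05 and *PLK1* by −0.31 ± 0.06. *AURKB*, the second largest fall in sgControl cells, had 2026, 2134 and 2056 normalized counts in DMSO and 1746, 1592 and 1598 in abemaciclib (−0.33 ± 0.09, adjusted p = 0.000617), and was the only 1 of the 4 passenger complex genes that was called. *BUB1B* (−0.32 ± 0.08), *MAD2L1* (−0.34 ± 0.07), *CDC20* (−0.34 ± 0.08) and *SMC4* (−0.31 ± 0.08) passed the test as well.

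*CENPF* was the only member called higher. It had 26476, 26792 and 23869.5 normalized counts in DMSO and 29169, 32399.8 and 29503 in abemaciclib (0.24 ± 0.09, adjusted p = 0.0324), and the call was lost in 7 of 18 alternative fits. Without knockout abemaciclib replicate 2 or 3, or knockout DMSO replicate 1 or 3, the estimate lay between 0.19 and 0.26 (adjusted p = 0.0539 to 0.176). Without sgControl DMSO replicate 1, which enters this comparison through the shared estimate of spread, 27 members were lower and 2 higher, with *CDC25C*, *ECT2*, *KIF14* and *UBE2C* added. The largest positive estimate was that of *CDC25C* (0.25 ± 0.11, adjusted p = 0.0774), which did not pass. Of the 9 kinesin genes 2 were lower. The estimates nearest 0 were those of *KIF11* (0.00 ± 0.07, 95% interval −0.13 to 0.13), *KIF15* (−0.01 ± 0.08, −0.17 to 0.16) and *CENPE* (−0.01 ± 0.13, −0.26 to 0.24), each for a motor protein of the spindle or kinetochore. *KIF11* had 5362, 5074 and 5310.0 normalized counts in DMSO and 5288, 5299 and 5159 in abemaciclib.

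An interaction term of genotype and treatment tested whether the 2 genotypes responded by different amounts. It was positive for 59 of 60 members, meaning a less negative response in the knockout, and all 60 estimates were above 0 in DESeq2 and in edgeR, against 21.1% positive and 20.3% negative among the 20932 genes tested. For 56 members it was at least 2-fold (9.80% of all genes), and the median was 2.31 on the log2 scale. After *MKI67*, the largest interactions were those of *AURKB* (5.77 ± 0.18, adjusted p = 3.78e-229) and *KIF20A* (5.35 ± 0.11, adjusted p too small for the software to represent). The smallest that passed were those of *MAD2L1* (0.90 ± 0.10, adjusted p = 5.23e-19) and *ECT2* (0.93 ± 0.10, adjusted p = 8.09e-18). That of *FZR1* was 0.01 ± 0.06 (95% interval −0.11 to 0.12, adjusted p = 0.955). Across the 60 members, the response in sgControl cells and that in knockout cells, which share no library, had a Pearson correlation of 0.22 and a Spearman correlation of 0.15. Genes are not independent replicates, and this is given as a description.

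Without the drug, most members were modestly lower in knockout than in sgControl cells. Of the 60 genes, 34 were lower and 3 higher, against 18.2% lower and 19.2% higher among the 16755 genes tested. The median log2 fold change was −0.19, so that the median member stood at 87.5% of its sgControl level. The genotypes did not overlap for 34 members that were lower and 3 that were higher in the knockout, as for 22.7% and 23.7% of all genes. By role, 5 of 6 genes of the NDC80 and SKA complexes and 4 of 5 checkpoint genes were lower, and 1 of 5 in the group of APC/C activators and separase.

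The largest difference was that of *NUF2*, for a subunit of the NDC80 complex. It had 3569, 3211 and 3299 normalized counts in sgControl cells and 2216, 2090.0 and 1911 in knockout cells (−0.70 ± 0.08, adjusted p = 2.69e-17), which is 61.7% of the sgControl level. *NUF2* overlaps *RGS5* and a further gene model on the opposite strand. *MAD2L1* followed with 5179, 4662 and 4669 against 3349, 3065 and 3139 (−0.60 ± 0.07, adjusted p = 5.54e-17), and *CDK1* with 5506, 5149.8 and 5235 against 3664, 3353 and 3450.2 (−0.60 ± 0.06, adjusted p = 1.08e-24). For these 3 genes all knockout libraries lay below all sgControl libraries.

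Other decreases in the knockout were smaller. They included *NDC80* (−0.51 ± 0.07) and *CENPA* (−0.41 ± 0.10) of the kinetochore, *TOP2A* (−0.42 ± 0.08), *CCNA2* (−0.39 ± 0.05), and *BIRC5* (−0.36 ± 0.06) and *AURKB* (−0.29 ± 0.08) of the passenger complex.

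The 3 members that were higher in the knockout were *CDC25B*, *CCNF* and *KIF20A*. *CDC25B*, for the phosphatase that starts CDK1 activation at centrosomes, had 5915, 5929.8 and 5503 normalized counts in sgControl cells and 6852, 7059 and 6900.4 in knockout cells (0.26 ± 0.05, adjusted p = 1.81e-06). *CCNF*, for cyclin F, a substrate receptor of an SCF ubiquitin ligase, changed by 0.23 ± 0.06 (adjusted p = 0.000169) and *KIF20A* by 0.17 ± 0.06 (adjusted p = 0.00736). The call of *KIF20A* was lost in 3 of 18 alternatives, among them the fit without knockout DMSO replicate 1 (0.15, adjusted p = 0.0702). *MKI67* had the highest estimate, with 21670.3, 33374 and 29062 in sgControl cells and 35682, 38708 and 32860.5 in knockout cells, and did not pass (0.35 ± 0.20, adjusted p = 0.153), although it did in 4 of 18 alternatives, among them those without sgControl DMSO replicate 2 or sgControl abemaciclib replicate 3. The estimates nearest 0 were those of *CDC25A* (0.00 ± 0.07, 95% interval −0.14 to 0.14), *FZR1* (0.01 ± 0.04, −0.07 to 0.09) and *TPX2* (−0.03 ± 0.06, −0.15 to 0.10).

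**Figure D4:**
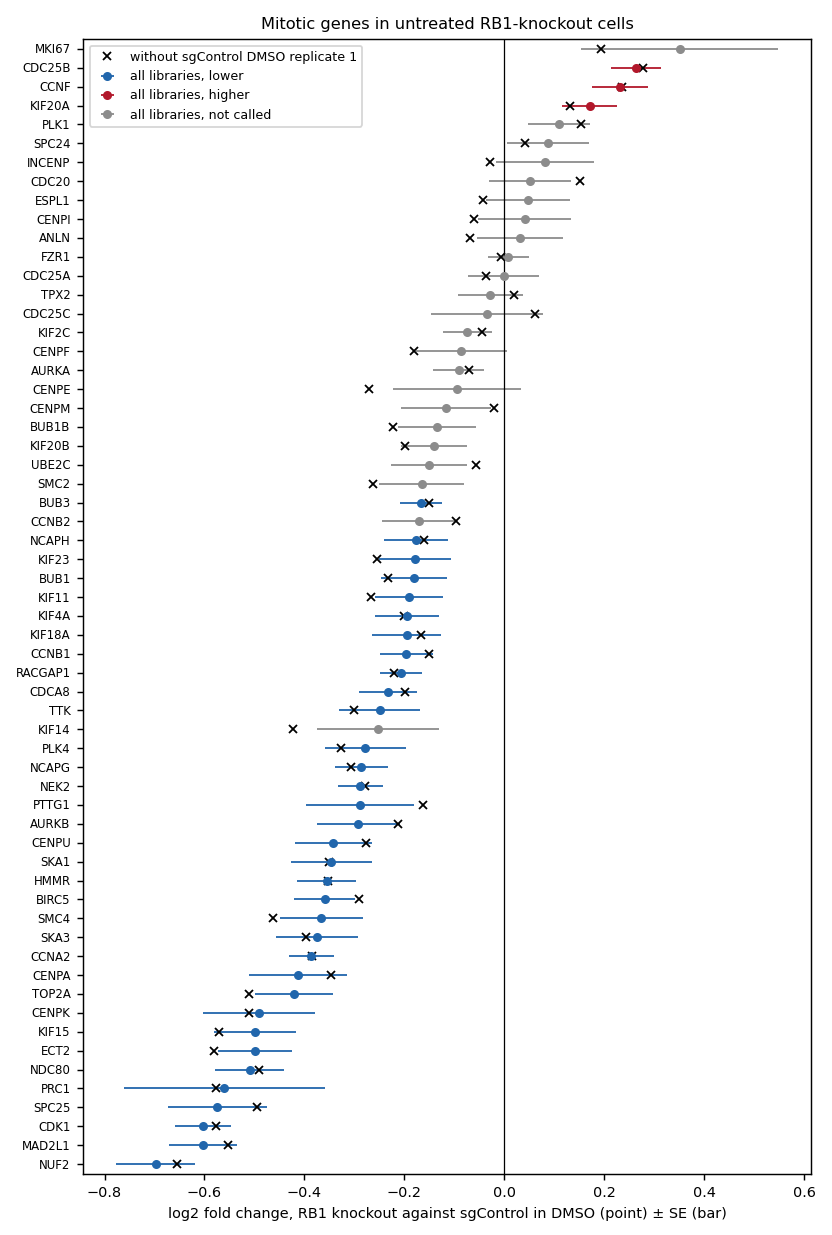
Log2 fold change of each member in RB1 knockout against sgControl cells in DMSO. Points with bars (± SE) come from the fit with all 3 sgControl replicates. Crosses without bars come from the fit without sgControl DMSO replicate 1. Most points lie below 0 in both fits, with 34 members called lower in the first and 38 in the second.

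This comparison rests in part on sgControl DMSO replicate 1, whose members deviated from the other replicates by transcript length. Exonic length here is the union of a gene's exons in GENCODE release 44. The Spearman correlation of that library's deviation from its group mean with length was −0.75 across the 60 members and −0.58 across 11452 expressed genes. Replicates 2 and 3 had 0.60 and 0.69 across the members. Deviations within a group of 3 depend on each other, so these values are not separate observations. In the 9 libraries of the other groups the correlation across the members lay between −0.27 and 0.43. For the 20 shortest members (1286 to 3554 bases) replicate 1 was a median of 0.17 on the log2 scale above the mean of replicates 2 and 3, and 17 of the 20 were above it. For the 20 longest (5499 to 12845 bases) the median was −0.26, and 4 were above. The part of this pattern in the comparison of genotypes was not tested.

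**Figure D5:**
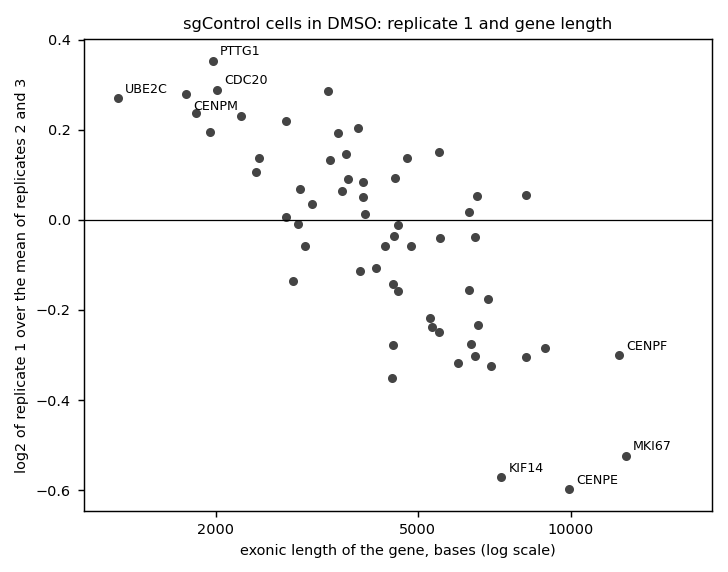
Log2 of the normalized count in sgControl DMSO replicate 1 relative to the mean of replicates 2 and 3 (y axis) against exonic length in bases (x axis, log scale), with one point for each of the 60 members. Short members tend to lie above 0 and long members below, with a Spearman correlation of −0.75 for the deviation of this library from its group mean.

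Without that library, 38 members were lower and 5 higher in the knockout. *NUF2* (−0.65 ± 0.08), *MAD2L1* (−0.55 ± 0.06) and *CDK1* (−0.58 ± 0.06) remained called, as did *CDC25B* (0.28 ± 0.05), *CCNF* (0.24 ± 0.06) and *KIF20A* (0.13 ± 0.05). *BUB1B*, *CENPE*, *CENPF*, *KIF14*, *KIF20B* and *SMC2* became called lower and *CDC20* and *PLK1* higher, whereas *KIF18A* and *PTTG1* lost their calls. The estimate for *MKI67*, the longest member, moved from 0.35 to 0.19 ± 0.19. The Spearman correlation of the genotype difference with length across the members was 0.20 with the library and −0.04 without it.

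Under abemaciclib the 2 genotypes were far apart. Of the 60 members, 59 were higher in knockout than in sgControl cells and all 60 estimates were above 0 in DESeq2 and in edgeR, against 28.5% higher and 27.4% lower among the 21529 genes tested, and 54 differed at least 2-fold (14.3% of all genes). The replicates did not overlap for these 59, as for 33.1% of all genes in that direction. The median log2 difference was 2.17, and with the replicate number as a block it was 2.17 with the same 59 members called. *MKI67* had 396, 441 and 272 normalized counts in sgControl cells and 26768, 32037 and 29666 in knockout cells (6.32 ± 0.20), a 79.8-fold difference. *KIF20A* (5.52 ± 0.10) and *AURKB* (5.48 ± 0.16) followed, at 45.9-fold and 44.5-fold.

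The smallest differences that passed were those of *MAD2L1*, *ECT2* and *NUF2*, which were also lower in the knockout without the drug. *MAD2L1* had 1939, 1985 and 2213 normalized counts in sgControl and 2560.5, 2563 and 2445 in knockout cells (0.30 ± 0.07, adjusted p = 5.07e-05). *ECT2* had 3236, 3364 and 3409 against 4567, 4534 and 4386 (0.43 ± 0.07, adjusted p = 2.64e-08). *NUF2* differed by 0.75 ± 0.08. *FZR1* had 4780.5, 4866 and 4929 against 4879.8, 4901 and 4934 (0.01 ± 0.04, adjusted p = 0.808), so that its levels overlapped between the genotypes.

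Set beside sgControl cells in DMSO, the drug-treated knockout held a median of 81.2% of each member's level, given here without a test. The lowest value was that of *SPC25* at 39.7% and the highest that of *CDC25B* at 116%.

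Genes of the same processes that were not members were read from 3 further lists. Of 58 other mitotic genes, 54 were lower and 2 higher in sgControl cells under abemaciclib (median −1.66, against 24.8% lower and 25.0% higher among all genes), with *CDCA3* (−4.21 ± 0.09), *TROAP* (−4.08 ± 0.11) and *DEPDC1B* (−3.97 ± 0.12) the largest decreases. The 2 that rose were *CENPT* (0.40 ± 0.08, adjusted p = 4.16e-07), for a constitutive centromere protein, and *NUMA1* (0.37 ± 0.08, adjusted p = 4.18e-06), for a spindle pole protein that also has a role in the interphase nucleus. The 2 that DESeq2 did not call, *NUSAP1* and *MAD1L1*, averaged 19.7 and 5.6 normalized counts in DMSO, and edgeR called *NUSAP1* higher (adjusted p = 0.0475) and did not test *MAD1L1*. In knockout cells 18 of the 58 were lower and 5 higher (median −0.08), against 15.1% and 14.9% of all genes.

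The core subunits of the APC/C, the ubiquitin ligase that CDC20 and Cdh1 activate, had calls in both directions. Of 14 genes in sgControl cells, 8 were lower, 4 were higher and none changed 2-fold (median −0.16). The 4 of 14 that were higher are a share near the 25.0% of all genes, and 24.8% of all genes were lower. *ANAPC4* (−0.60 ± 0.10), *ANAPC15* (−0.50 ± 0.10) and *CDC27* (−0.43 ± 0.07) had the largest decreases, and *ANAPC16* (0.39 ± 0.09), *CDC16* (0.32 ± 0.07) and *ANAPC2* (0.29 ± 0.05) the largest increases. In knockout cells 5 were lower and 1 higher (median −0.17), where all genes had 15.1% lower and 14.9% higher.

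Cohesin holds sister chromatids together until separase cleaves it. Of 10 genes for its subunits and loaders, 8 were lower and 1 higher in sgControl cells (median −0.44, all genes 24.8% and 25.0%), and 4 fell at least 2-fold. *RAD21*, for the subunit that separase cuts, had the largest decrease (−1.82 ± 0.04), followed by *STAG1* (−1.25 ± 0.09) and *SMC1A* (−1.16 ± 0.10). *MAU2*, for a cohesin loader, was the gene that rose (0.30 ± 0.09, adjusted p = 0.00340). In knockout cells none of the 10 was called in the DESeq2 fit (median 0.05), where 3 had an unadjusted p under 0.05, and edgeR called 0 as well.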

How the data were processed

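RNA-seq libraries of 12 ZR-75-1 cultures (4 groups of 3 biological replicates, grouped by the genotype, treatment and replicate given in the labels) were analysed. The authors deposited raw counts of reads per gene. Per the labels the libraries were made with a directional whole-transcript kit and processed with STAR 2.7.5b and featureCounts 2.0.1 on hg38. The study's general methods describe a different kit, which captures 3′ ends, and the strand and multi-mapping settings of counting are not stated. Of 60656 rows, 44 without a gene name were left out (0% of counts).

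Counts were fitted with DESeq2 1.42.0 (R 4.3.3), the tool named in the study's methods, with 1 term for group over all 12 libraries. Wald tests gave Benjamini-Hochberg adjusted p-values over all genes kept by independent filtering, with a threshold of 0.05. Normalized counts are counts divided by DESeq2 size factors. The 5 contrasts were abemaciclib against DMSO in each genotype, the difference between these responses, and knockout against sgControl under each treatment. Scripts were tested on simulated counts. Alternatives were edgeR 4.0.16 (quasi-likelihood, TMM), total-count size factors, a filter of at least 10 counts in 3 samples, no independent filtering, a fit of the contrast's own groups, a replicate block, and each of the 12 libraries left out in turn. Total counts of 39907318 to 81636393 per library set the counting precision.

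The members and gene lists were chosen with earlier results of these data known. Named genes were 30 members representing the roles, the 3 largest and 3 smallest changes of each contrast, up to 5 members called against the majority, up to 3 genes per direction of each further list in sgControl cells, and *RB1*. Members mentioned outside this rule were chosen after their values were seen.

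No 2 replicates agreed within sampling noise. Deviations of same-numbered replicates from their group means were correlated over 11885 genes. The correlations were 0.24, 0.20 and −0.07 for treatment in sgControl and −0.02, −0.07 and 0.02 for treatment in the knockout. Between genotypes in DMSO they were −0.24, −0.02 and 0.08. Such values cannot decide whether the numbers pair the samples. Under abemaciclib the correlations between genotypes were 0.14, 0.24 and 0.11, where differently numbered replicates had −0.15 to 0.001. Differently numbered replicates reached 0.41 for treatment in sgControl cells, so values of this size do not establish pairs. The labels do not state a source of pairing. A fit with the number as a block was therefore added for the genotypes under abemaciclib. Values printed for that comparison come from the fit without the block, and the blocked median and calls stand beside them.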

Additional observations from a re-analysis of the deposited data

Results flagged for a closer look

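The response to abemaciclib differed between sgControl and RB1 knockout cells, by the interaction term of the DESeq2 fit, for 59 of the 60 members, with no member in the other direction. Among the genes described, the interaction was 5.77 on the log2 scale for *AURKB*, 5.35 for *KIF20A*, 0.93 for *ECT2* and 0.90 for *MAD2L1*, each positive because the decrease in sgControl cells was larger than that in the knockout. No test for single outlying libraries was run on these groups of 3.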

How the results depend on the processing

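No called member changed sign under any alternative, and 59 members stayed called lower in sgControl cells when any library was left out. Total-count size factors moved the medians of the members to −2.58 (treatment in sgControl cells), 2.45 (interaction), −0.22 (genotype in DMSO) and 2.28 (genotype under abemaciclib). The medians of all genes then moved to −0.12, 0.16, −0.03 and 0.14, and *FZR1* became called lower in sgControl cells. The count of members called higher by abemaciclib in the knockout, 1 as reported, was 0 with edgeR, 0 without independent filtering, 0 with total-count size factors, 2 with only the groups of the contrast, and 0 to 2 with a library left out. It was 0 without knockout abemaciclib replicate 3 or knockout DMSO replicate 1 or 3, 2 without sgControl DMSO replicate 1, and without knockout abemaciclib replicate 2 *CDC25C* took the place of *CENPF*. With a library left out, members higher in the knockout in DMSO numbered 2 to 5 (5 without sgControl DMSO replicate 1), those lower 26 to 38, and their median lay between −0.22 and −0.18.

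With the replicate block, 33 members were lower and 4 higher in the knockout in DMSO. *KIF23* lost its call and *MKI67* gained one (0.36, adjusted p = 0.0104 in DESeq2, where adjusted p over all alternatives ran from 0.00655 to 0.461). The block changed no other call of a member. *KIF20A* lost its call in that comparison with total-count size factors and with only the groups of the contrast (adjusted p = 0.129 and 0.0739, over all alternatives 0.00618 to 0.129).

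Signs that changed belonged to estimates near 0 that were not called. *KIF11* in the knockout response was −0.00768 with edgeR, −0.00480 with only the groups of the contrast, −0.000211 with the block, and −0.0234 to 0.0154 with a library left out. The same ranges were −0.0363 to 0.0103 for *KIF15* and −0.0615 to 0.0466 for *CENPE*. *FZR1* ranged from −0.0136 to 0.0211 in the interaction, from −0.00298 to 0.0204 between genotypes under abemaciclib, and from −0.00652 to 0.0309 in DMSO, where total-count size factors gave −0.0156. In DMSO *CDC25A* ranged from −0.0367 to 0.0362 and *TPX2* from −0.0868 to 0.0194. Among single genes described, 1412 alternative values kept direction and side of the threshold, 10 lost a call and 8 gained one. Why these calls changed was not tested. Counting error weighs most on *CENPA*, *SPC25*, *PRC1* and *AURKB*, whose lowest raw counts were 27, 27, 29 and 34.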
